A study of Rattus norvegicus with 28 samples.

Results

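Chromatin accessibility in the dorsal root ganglion (DRG) was compared directly between nerve injury and paw inflammation. The comparison took the 6 ATAC-seq libraries made after chronic constriction injury (CCI) and the 6 made after complete Freund's adjuvant (CFA), which are 12 of the 15 ATAC-seq libraries and of the 17 libraries at hand. The other 3 ATAC-seq libraries came from naïve rats and served to place each difference. Each library came from the pooled ipsilateral L4 to L6 DRGs of a male Sprague-Dawley rat aged 12 weeks. CCI rats carried loose ligatures around the sciatic nerve and were sampled at day 14, CFA rats were sampled 48 h after the adjuvant was injected into the hind paw, and naïve rats had neither. No sham-operated or saline-injected group was analysed here. Injured rats were used only if they had developed mechanical hypersensitivity, so the groups stand for hypersensitive animals. The groups differ in the kind of injury and in the time after it, and these cannot be told apart.

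The DRG holds the cell bodies of the sensory neurons that innervate the limb, wrapped by satellite glia and accompanied by Schwann cells, endothelial cells and immune cells. CCI damages the axons of many of these neurons and leaves a lasting neuropathic state, whereas CFA inflames the tissue in which the axons end and leaves the axons themselves intact. ATAC-seq uses the Tn5 transposase to cut and tag open DNA, so that promoters, enhancers and other regulatory elements collect more reads than closed chromatin. In a whole ganglion, a larger number of cells with an open element and a more open element in each cell cannot be told apart. The tables do not pair regions with genes, and marker genes of the tissue could therefore not be checked.

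Accessibility was given as log2 normalized coverage for 56810 regions of the rn6 genome, with a median width of 550 bp. The CCI and CFA values were deposited in separate tables, each with the naïve libraries, and each naïve library ordered all 56810 regions identically in both tables. The 15 columns were quantile-normalized together, and all levels below are log2 values on that joint scale. A difference of 1 is therefore a doubling of accessibility.

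Within this set, 4 regions had been cloned by the study in front of a luciferase reporter, and their primers are the only DNA sequences of these regions in the files used here. They lie nearest to Wdr60, Mtdh, Rrm2b and Arap2, and the primers are shown because they mark which regulatory pieces were chosen as shared by both pain models. Capitals mark the part that follows the added MluI (left) or BglII (right) site, each sequence reads 5′ to 3′, and the amplified span is given in rn6.
Wdr60 left, chr6:144123318-144124010: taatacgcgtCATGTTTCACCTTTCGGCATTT
Wdr60 right: gcgcagatctGAATTAAAGGTGTGCGCTGC
Mtdh left, chr7:72282622-72283216: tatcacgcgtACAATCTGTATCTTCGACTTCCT
Mtdh right: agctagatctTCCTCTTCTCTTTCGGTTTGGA
Rrm2b left, chr7:76825820-76826319: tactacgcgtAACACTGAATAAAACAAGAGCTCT
Rrm2b right: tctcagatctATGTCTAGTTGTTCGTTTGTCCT
Arap2 left, chr14:48665279-48665702: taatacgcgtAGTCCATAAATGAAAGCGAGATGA
Arap2 right: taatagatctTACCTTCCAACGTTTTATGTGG
Each amplified span overlapped 1 of the 56810 regions, and their values are given with the other shared regions below.

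The libraries of the groups differed before any region was compared. CCI replicates 3 to 6 were sequenced in 1 run, whereas CCI replicates 1 and 2, all CFA libraries and all naïve libraries were sequenced in 2 runs. Values in a library fall on steps, 1 for each distinct value, and the signal ratio was taken as the step at the 90th percentile of regions divided by that at the 25th, so that it is high where strong regions stand far above weak ones. The signal ratio was 6.36 ± 1.04 (SD, n = 6) after CCI and 9.07 ± 0.679 (SD, n = 6) after CFA. Values ran from 5.24 to 7.77 after CCI and from 8.38 to 10.2 after CFA, and the groups did not overlap (two-sided exact permutation p = 0.00216, which is the minimum for 6 against 6, adjusted p = 0.0152 over 7 library summaries). The naïve libraries had 9.11 ± 1.14 (SD, n = 3) and overlapped the CFA range. CFA libraries correlated with each other at r = 0.944 to 0.966 over regions, and CCI libraries with each other at 0.882 to 0.936. CCI replicates 1 and 5 correlated more with the CFA libraries (mean r = 0.939 and 0.936) than with the other CCI libraries (0.911 and 0.91). Per the study's methods, each library was downsampled to an equal number of Tn5 insertion sites before peaks were called, and whether the read counts behind these values were downsampled too is not given in the sources used here. Counts of reads per library could not be read from the normalized values. The CCI libraries held 544 to 919 distinct values and the CFA libraries 907 to 1207. The median step over regions was 33 to 54 after CCI and 44 to 59 after CFA. Whether this follows from sequencing depth was not tested.

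The direction of the difference between nerve injury and inflammation depended on how regions were counted. At an unadjusted p of 0.001 in limma, 1954 of 56810 regions (3.44%) differed between CCI and CFA. Of these, 1328 (68.0%) were more accessible after CCI and 626 (32%) were less accessible, which are 2.34% and 1.10% of all regions. The regions higher after CCI differed by a median of 0.984 and at most by 1.85, and those lower after CCI by a median of -0.663 and at most by -2.36. With Benjamini-Hochberg adjustment in limma, 4013 regions had an adjusted p below 0.05, 2487 higher and 1526 lower after CCI, and the smallest adjusted p was 0.0119. The median over all regions was -0.0486, and 24596 of all 56810 regions (43.3%) had a higher mean after CCI. On the deposited values without joint normalization the median was -0.358 and the balance turned, with 158 regions higher (1.26% of those passing) and 12403 lower, so that each direction given here is relative to the joint scale. The balance of passing regions also turned with run number as a term (152 higher and 301 lower). Only CCI had libraries of 1 run, so that fit estimates the same differences as CCI replicates 1 and 2 against CFA. It is no separate adjustment for run number. Leaving out CFA a or CFA replicate 3, 4 or 5 lowered the count of passing regions by over 1.5 times, to between 1103 and 1264. The 6 CCI and 6 CFA libraries did not overlap in 2065 regions (3.63%), with CCI above in 827 and below in 1238, and 1072 of the 1954 regions were among them. The study kept a region if its peak was called in enough libraries of a group, and reported the fewest such regions for CCI. Regions could thus enter through CFA or naïve libraries alone. How far this filter moved the median over all regions, the share of 43.3% and these counts was not tested.

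The signal ratio moved with these differences. Averaged over the 1328 regions, CCI replicates 3 and 6, which had the lowest signal ratios of 5.24 and 5.32, had the highest levels of 7.07 and 6.97. CCI replicates 1 and 5, with signal ratios of 7.39 and 7.77, had the lowest CCI levels of 6.30 and 6.24. All 6 CFA libraries lay lower, between 5.52 and 5.92. Over the 626 regions the order was the opposite, with CCI libraries at 5.59 to 5.88 and CFA libraries at 6.37 to 6.46. With the signal ratio as a covariate in limma, 78 regions had p below 0.001, 27 higher and 51 lower, and 0 passed an adjusted p of 0.05. Since no CCI library reached the signal ratio of any CFA library, the signal ratio and the pain model cannot be told apart.

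**Figure D1:**
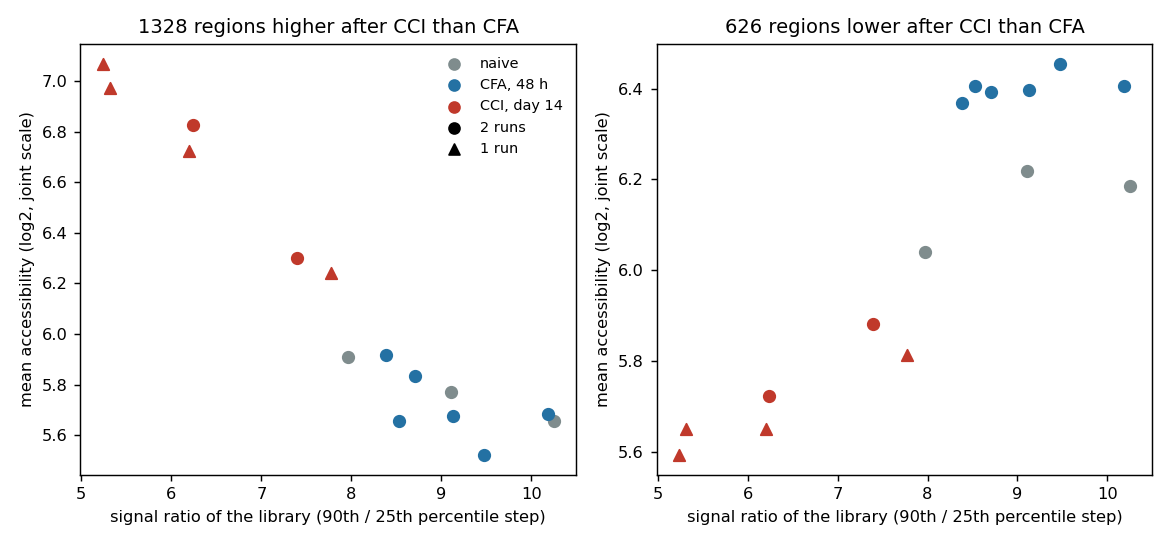
Each point is 1 library, with its signal ratio on the x axis and its mean accessibility (log2, joint scale) on the y axis, over the 1328 regions higher after CCI (left) and the 626 lower after CCI (right). Circles had 2 sequencing runs and triangles had 1. CCI libraries sit at ratios of 5.24 to 7.77 and CFA libraries at 8.38 to 10.2, and within CCI the level follows the ratio.

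The naïve libraries placed each difference. In the regions higher after CCI, naïve accessibility lay close to CFA, with a median CFA minus naïve difference of -0.04 and a median CCI minus naïve difference of 0.948. The naïve mean was nearer to CFA than to CCI in 1208 of the 1328 regions (91.0%, against 56.3% of all regions). It lay between the models in 768 of the 1328 (57.8%). Of the 1328 regions, 552 had p below 0.001 in CCI against naïve (41.6%, against 2.38% of all regions). In CFA against naïve, 19 did so (1.43%, against 0.616% of all regions). These counts share their CCI and CFA libraries with the comparison that chose the regions and are given as a description.

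The regions lower after CCI differed from the higher ones in the degree of each placement. Naïve accessibility lay between the models in 511 of the 626 regions (81.6%, against 57.8% of the higher regions) and in 18185 of all 56810. The naïve mean was nearer to CFA in 385 of the 626 (61.5%), against 91.0% of the higher regions and 56.3% of all regions. Over the 626 regions the median was -0.423 for CCI minus naïve and 0.257 for CFA minus naïve. The medians of the models thus lay on opposite sides of naïve, and 91 of these regions passed in CCI against naïve (14.5%, against 2.38% of all regions) and 25 in CFA against naïve (3.99%, against 0.616%). These regions too were chosen on the same CCI and CFA libraries, and their counts are a description. Over all regions, the CCI libraries lay above all 9 other libraries in 451 regions (0.794%) and below them in 380 (0.669%). The CFA libraries lay above all 9 others in 390 regions (0.686%) and below them in 136 (0.239%).

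In the naïve and CFA libraries, the 5 regions higher after CCI with the smallest p all lay below 5.55, the median naïve level over all regions. The region chr18:9816770-9817327 ranged from 4.75 over a median of 5.08 to 5.52 after CCI and from 3.62 over 3.81 to 4.18 after CFA, while the naïve libraries had 4.62, 4.17 and 4.12. Its difference was 1.24 ± 0.146 (SE, limma, p = 4.32e-07, adjusted p = 0.0119), and it was also among the 3 higher regions with the smallest p in the 2-run libraries, with a difference of 1.49. The naïve mean lay between the models here.
At chr4:72031400-72031762, CCI libraries ranged from 4.38 over 4.89 to 5.53 and CFA libraries from 3.39 over 3.49 to 3.72, with naïve libraries at 3.68, 4.17 and 3.37. The difference was 1.41 ± 0.175 (SE), and naïve overlapped CFA. At chr8:40813078-40813545, CCI had 4.81 to 5.53 and CFA 3.64 to 4.32, with a difference of 1.16 ± 0.148 (SE).
All 3 naïve libraries at this region, with 4.68, 4.69 and 4.34, lay between the groups. The region chr16:22091614-22092059 had 5.50 to 6.43 after CCI, 4.68 to 5.20 after CFA and a difference of 1.23 ± 0.160 (SE), and the region chr7:689736-690210 had 4.45 to 5.47, 3.53 to 4.14 and 1.31 ± 0.174 (SE). The last 2 regions lie inside the long stretches described below.

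The 5 regions lower after CCI with the smallest p included 2 on chromosome 12 and 1 on chromosome 10. At chr12:45664427-45664993, CCI libraries ranged from 4.36 over 4.72 to 4.90 and CFA libraries from 5.47 over 5.64 to 5.72, and the naïve libraries had 5.19, 4.17 and 5.21. The difference was -0.93 ± 0.114 (SE, limma, p = 7.21e-07, adjusted p = 0.0119). The naïve mean was nearer to CCI, at 0.775 below CFA, but this rested on naïve replicate 2 (4.17). Naïve replicates 1 and 3 lay between the groups, slightly nearer to the CFA mean of 5.63 than to the CCI mean of 4.70.
At chr12:48772979-48773504, CCI ranged from 6.12 over 6.27 to 6.36 and CFA from 6.88 to 7.07 around a mean of 6.99, while naïve had 6.50, 6.30 and 6.41. The difference was -0.74 ± 0.0981 (SE), the spread within each group was 0.08 (SD), and CFA stood 0.593 above naïve. CCI stood at only -0.14 against naïve.
At chr10:74873819-74874104, CCI had 4.44 to 5.08 and CFA 5.66 to 6.03, with naïve at 5.31, 5.08 and 5.63 and a difference of -1.13 ± 0.140 (SE). At chr1:141855677-141855981, CCI had 5.31 to 5.84 and CFA 6.24 to 6.47, with a difference of -0.88 ± 0.116 (SE). At chr3:12689372-12689715, CCI had 5.08 to 5.47 and CFA 5.99 to 6.28, and naïve, at 6.34, 5.70 and 6.16, lay nearer to CFA. In each of these 10 regions the groups did not overlap, as the rule that chose them required.

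Regions higher after CCI were gathered in long runs along the chromosomes. A stretch was taken as at least 3 regions that differed in the same direction, each within 100 kb of the next. There were 87 stretches higher after CCI, holding 738 of the 1328 regions (55.6%), and all regions inside them made up 2.99% of the regions tested. There were 32 stretches lower after CCI, holding 110 of the 626 regions (17.6%), and none held more than 5. All regions inside the lower stretches made up 0.475%. Stretches were drawn around passing regions, so a high share of passing regions inside them follows from the definition. The number of stretches that chance would give was not tested. In 79 of the 87 higher stretches, every region inside, passing or not, was higher after CCI. Without CCI replicate 5 there were 144 higher stretches, and without the other CCI or CFA libraries in turn there were 60 to 128. With run number as a term there were 2 higher and 3 lower stretches, and with the signal ratio as a covariate there were none of either. The run term gives the differences of CCI replicates 1 and 2 against CFA, which in their own fit formed 18 higher and 4 lower stretches. The count of lower stretches with single libraries left out moved between 8 (without CFA replicate 5) and 52 (without CCI replicate 1).

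The stretch with the most passing regions was on chromosome 1 (chr1:180533660-181383328, 850 kb). It held 102 regions, of which 62 had p below 0.001 and all 102 were higher after CCI, by 0.242 to 1.42. The mean over its 102 regions ranged from 6.84 over a median of 7.69 to 8.03 after CCI, from 6.20 over 6.45 to 6.91 after CFA, and was 6.03, 6.62 and 6.33 in the naïve libraries. Although no other stretch held as many passing regions, its CCI and CFA means overlapped, because CCI replicate 5 (6.84) lay below CFA replicate 6 (6.91).
On chromosome 16 (chr16:21675957-22124541, 449 kb), 34 of 95 regions passed and 91 were higher, and the stretch mean was 6.28 to 7.48 after CCI and 5.90 to 6.54 after CFA. The longest stretch was on chromosome 2 (chr2:435889-1330841, 895 kb), where 31 of 95 regions passed and all 95 were higher, and the means of 5.39 to 6.41 after CCI and 5.06 to 5.36 after CFA did not overlap. A second stretch on chromosome 1 (chr1:38786750-39470062, 683 kb) had 29 of 76, and one on chromosome 7 (chr7:464410-962301, 498 kb) had 26 of 60, with every region higher in both.
In all 5 stretches the CCI libraries followed 1 order at the bottom, with replicates 5 and 1 lowest. Naïve and CFA were close in them, with a median CFA minus naïve difference between -0.01 and 0.193. Of the 738 regions in higher stretches, 13.7% spanned 1500 bp or more, against 2.86% of all regions. Of the 590 higher regions outside stretches, 7.12% did so.

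**Figure D2:**
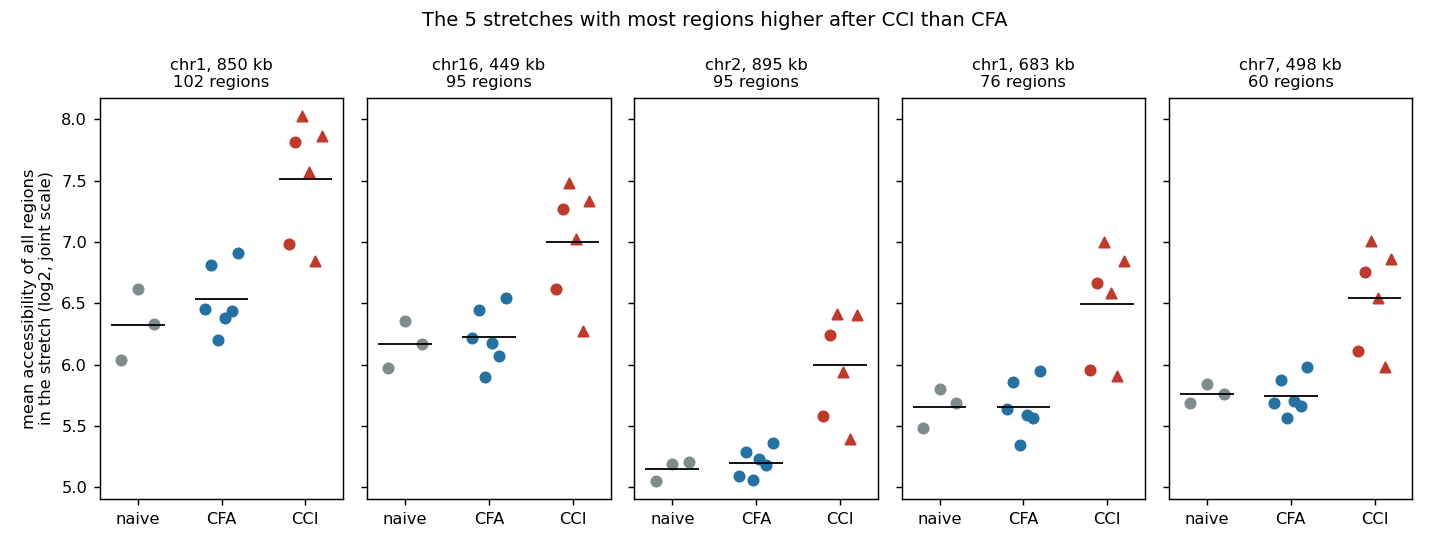
The mean accessibility of all regions in a stretch (log2, joint scale, y axis) is shown for each naïve, CFA and CCI library in the 5 stretches with most passing regions, and lines are group means. Circles had 2 sequencing runs and triangles had 1. The CCI mean is highest in each panel, at 7.52 against 6.53 for CFA in the chromosome 1 stretch of 102 regions, and 2 CCI libraries sit near the CFA points.

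The direction of the difference varied by chromosome. On chromosome 10, 129 of 3421 regions were lower after CCI (3.77%) and 12 higher (0.351%), and on chromosome 12, 48 of 1538 were lower (3.12%) and 30 higher (1.95%). Over all regions 2.34% were higher and 1.1% lower, so the higher share of chromosome 12 was near that of all regions. On chromosome 2 the balance was the opposite of chromosome 10, with 173 higher (3.625%) and 16 lower (0.335%). Chromosome 9 had 112 higher (4.34%) and 11 lower (0.426%). Over all regions of chromosome 10 the mean level ranged from 5.87 over a median of 5.92 to 5.99 after CCI. After CFA it ranged from 6.02 over 6.15 to 6.18, so that the models did not overlap. The naïve libraries, at 6.01 to 6.09, overlapped CFA. The models did not overlap on chromosomes 12, 2 and 1 either, with CCI below CFA on chromosome 12 and above it on chromosomes 2 and 1. Means per library were taken for these chromosomes only.
The median difference was -0.21 on chromosome 10 and -0.20 on chromosome 12, against -0.0486 over all regions and 0.0493 on chromosome 2. On chromosome 10 the medians of the models lay on opposite sides of naïve, at -0.14 for CCI and 0.0678 for CFA. The signs were the same on other chromosomes, as on chromosome 12 (-0.118 and 0.0698), whereas both medians were below naïve on some, such as chromosome 4. Of the 32 stretches lower after CCI, 9 lay on chromosome 10 and 5 on chromosome 12. Of the 87 higher stretches, 22 lay on chromosome 1, 11 on chromosome 2 and none on chromosome 10. Chromosomes 1 and 2 are also the largest by number of regions, with 6728 and 4772 of 56810.

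Chromosomes 10 and 12 carried the most regions per length, 30.5 and 29.2 per Mb, against 17.9 on chromosome 2. Over the 20 autosomes the median difference fell with regions per Mb (Pearson r = -0.82, Spearman rho = -0.72) and with the median GC content of RefSeq promoters of the GRCr8 assembly (r = -0.73, rho = -0.65), and chromosome 10 also had the highest promoter GC content, 55.0% against 49.7% on chromosome 2. These points share all libraries and are given as a description. The GC content of the regions themselves could not be measured, and its part in the result was not tested.
The same pattern held for neighbouring regions. In the decile of regions with the fewest others within 500 kb (median 7), the median difference was 0.178. There, 214 regions were higher after CCI (3.77%, against 2.34% of all regions) and 10 lower (0.176%, against 1.1%). In the ninth decile (median 53) the median difference was -0.15, with 69 higher (1.215%) and 116 lower (2.04%). The most crowded decile (median 68) departed from the trend: its median was -0.11, but 396 of its regions were higher (6.97%) and 146 lower (2.57%). Of the 396, 380 lay in stretches.

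**Figure D3:**
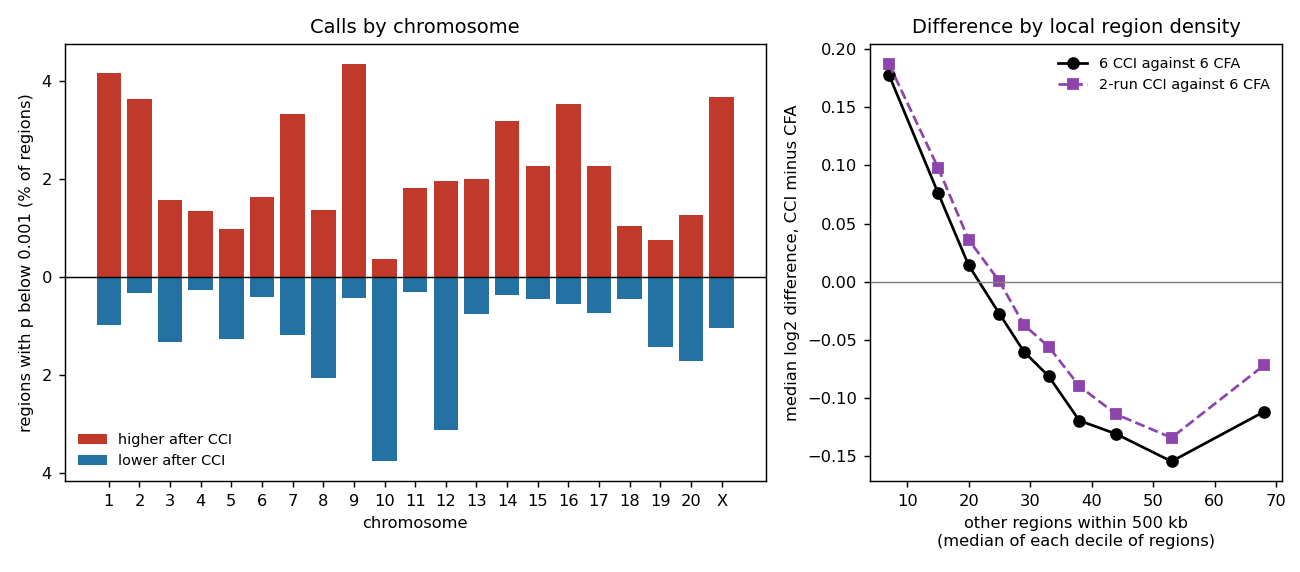
Left: the share of regions with p below 0.001 (y axis, %) on each chromosome except Y, higher after CCI above the line and lower below it, where chromosome 10 stands out with 3.77% lower and 0.351% higher. Right: the median log2 difference, CCI minus CFA, for deciles of regions ordered by the number of other regions within 500 kb, which falls from 0.178 to -0.15 and rises to -0.11 in the last decile.

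Width and level were also related to the direction. Of 1625 regions of 1500 bp or more, 143 were higher after CCI (8.80%, against 2.34% of all regions) and 7 lower (0.431%, against 1.1%). Of 3933 regions of 250 bp or less, 50 were higher (1.27%) and 59 lower (1.5%). Averaged over the wide regions, the level was 8.32 ± 0.0817 (SD, n = 6) after CCI and 8.22 ± 0.0274 (SD, n = 6) after CFA, a difference of 0.103 (exact permutation test, p = 0.0216, adjusted p = 0.0492). The naïve mean was 8.31 ± 0.0221 (SD, n = 3), close to CCI and above CFA. The adjusted p missed 0.05 when any library other than CCI replicate 5 was left out. The groups overlapped, with CCI at 8.18 to 8.39 and CFA at 8.18 to 8.24. The median wide region did not follow the mean: its difference was -0.0045, and 797 of the 1625 wide regions were higher after CCI.
In the decile of regions with the lowest naïve level, the mean was 4.36 ± 0.0794 (SD, n = 6) after CCI and 4.22 ± 0.0317 (SD, n = 6) after CFA, a difference of 0.142 (exact permutation test, p = 0.00433, adjusted p = 0.0152). There, 225 regions were higher (3.96%) and 15 lower (0.264%). In the highest decile CCI was lower by a mean of -0.0567 (exact permutation test, p = 0.0281, adjusted p = 0.0492), a call that was kept only without CCI replicate 1 or 5 when single libraries were left out. The naïve means were 4.061 in the lowest and 8.397 in the highest decile, beyond CFA and CCI in both. Both deciles were chosen on the naïve libraries, so libraries less correlated with naïve tend towards the middle in each. Mean r with naïve was 0.866 to 0.937 for CCI libraries and 0.931 to 0.947 for CFA libraries. How much of these differences follows from the choice of deciles was not tested. The X chromosome (-0.00592, exact permutation p = 0.851), the narrow regions (-0.0272, exact permutation p = 0.132) and the 11 Y regions (0.148, exact permutation p = 0.115) did not pass.

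The comparison was repeated with libraries of 2 sequencing runs only, CCI replicates 1 and 2 against the 6 CFA libraries. In limma 657 regions (1.16%) had p below 0.001, 296 higher (45.1%) and 361 lower (54.9%) after CCI. No region had a Benjamini-Hochberg adjusted p below 0.05, the smallest was 0.0602, and 10787 regions had an unadjusted p below 0.05. Of the 1954 regions of the full comparison, 297 passed here too, which is 15.2% of the 1954 and 45.2% of the 657, with all 8 libraries shared between the comparisons.
All 1328 regions higher in the full comparison were also above CFA in the 2-run libraries, with a median of 0.847, and all 626 lower regions were below, with a median of -0.57. The 87 higher stretches had 2-run medians of 0.501 to 1.35, from libraries that had also entered the choice of the stretches. Stretches formed from the regions passing in the 2-run libraries themselves numbered 18 higher and 4 lower, and without CCI replicate 2 there were 0. Chromosome 10 kept the lowest median (-0.18), with 68 regions lower and 5 higher. The count rested on CCI replicate 2: without it 257 regions passed, 44 higher and 213 lower, and without CCI replicate 1 it was 1436, 762 higher and 674 lower. The remaining CCI library was then assumed to vary like the CFA libraries. The 4 CCI libraries of 1 run against CFA gave 2313 regions, 1383 higher and 930 lower.

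Some regions with the smallest p in the 2-run libraries looked different in the other CCI libraries. At chr3:111613104-111613548, CCI replicates 1 and 2 had 4.09 and 4.52, the other CCI libraries 4.75 to 5.25 and CFA 5.61 to 5.82, so that CCI lay below CFA throughout (2-run difference -1.44, full difference -0.93). At chr10:69378696-69378980, the 2-run difference was -1.06 and the full difference -0.78, with CCI replicate 4 (5.37) inside the CFA range of 5.22 to 5.46.
At chr2:58337971-58338251, CCI replicates 1 and 2 had 2.93 and 2.86, below the CFA range of 4.05 to 4.58, whereas the 1-run CCI libraries had 4.36 to 5.39. Its 2-run difference of -1.50 became -0.17 over all 6 CCI libraries. At chr2:1262250-1262497 the 2-run difference was 1.45 and the full difference 0.718, and at chr7:21779060-21779439 they were 1.01 and 0.604, with the full CCI range overlapping CFA at both.

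The CCI libraries of 1 run lay far below all other libraries in 4 regions. In chr14:46524815-46525076, chr14:46653669-46653873, chr14:46654181-46654519 and chr4:24943789-24944343, CCI replicates 3 to 6 lay at least 2 below each of the other 11 libraries, and no region had them at least 2 above. At chr14:46653669-46653873 these 4 libraries had 3.11, 2.22, 3.45 and 3.37. CCI replicates 1 and 2 had 7.54 and 7.71 there, CFA 7.25 to 7.91, and naïve 8.08, 7.41 and 7.68.
At chr4:24943789-24944343 the 1-run CCI libraries had 1.97, 0.73, 1.78 and 1.37, against 5.73 and 7.05 in the 2-run CCI libraries and 4.54 to 5.89 after CFA. These regions gave the largest differences of the comparison in the downward direction, from -2.12 to -3.00, while with the 2-run CCI libraries they gave -0.39 at chr14:46524815-46525076, 0.0584 at chr14:46653669-46653873, -0.13 at chr14:46654181-46654519 and 1.17 at chr4:24943789-24944343. The first of them is the passing region with the lowest difference of the full comparison (-2.36). The 3 regions of chromosome 14 span 130 kb with 25 other regions, whose 1-run minus 2-run difference had a median of -0.89. Across all regions, CCI libraries of 1 run and of 2 runs differed at p below 0.001 in 54 (limma, 0.0951%), 6 of them with an adjusted p below 0.05. At p below 0.05 the share was 5.3%. Both shares are near those that chance gives at these thresholds. A fit of 4 against 2 libraries can miss many differences, so no conclusion on run number is drawn from these counts. The number of runs and the animals behind these libraries cannot be told apart.

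**Figure D4:**
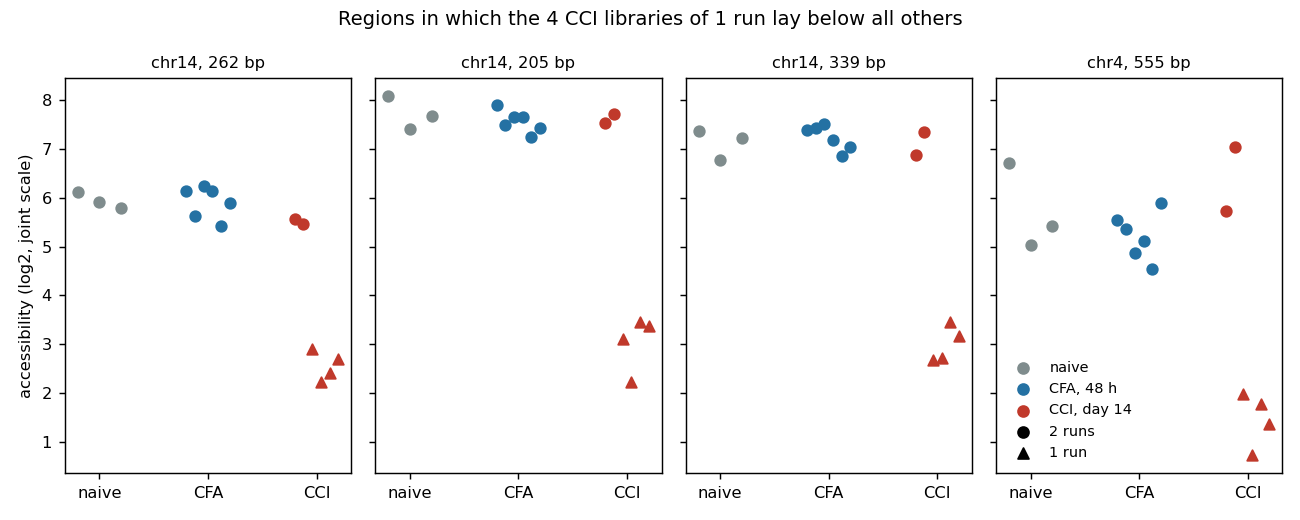
Accessibility (log2, joint scale, y axis) of each library in the 4 regions in which CCI replicates 3 to 6 lay at least 2 below the rest. Triangles are the 4 CCI libraries of 1 run, which sit at 0.73 to 3.45, and circles are the libraries of 2 runs.

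The regions that the study named as shared by both pain models were also compared between the models. There are 31 of them, 10 less accessible and 21 more accessible than naïve in both tables at p below 0.001, with the nearest gene as the study annotated it. The list was chosen on these libraries, so its direction against naïve is no independent evidence. Between CCI and CFA, 3 of the 31 passed at p below 0.001, all higher after CCI (9.68%, against 3.44% of all regions), and 12 had p below 0.05 (38.7%, against 25.2%). The median difference was -0.16 for the 10 lost regions and 0.352 for the 21 gained, against -0.0486 for all regions. With the 2-run CCI libraries the medians were -0.0325 and 0.239, against -0.0257 for all regions, and none of the 31 passed.

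None of the 10 lost regions passed. Of these, 1 was higher after CCI than after CFA, and 4 were with the 2-run libraries. Near Grik4, which encodes a kainate-type glutamate receptor subunit, CCI had 4.26 to 4.45 and CFA 3.90 to 4.79, with naïve at 5.33, 5.21 and 5.61. Its difference was -0.0762 with a 95% confidence interval from -0.41 to 0.254. Near Agtpbp1, whose product removes glutamates from tubulin, CCI had 4.17 to 4.66 and CFA 3.83 to 4.81, and the difference was 0.0748 (95% interval -0.27 to 0.422).
Near Dlg3, a synaptic scaffold, CCI had 4.58 to 5.19 and CFA 4.87 to 5.44, and the difference was -0.22 (95% interval -0.52 to 0.0742). Near Msx2, a homeobox transcription factor, it was -0.17 (-0.47 to 0.131). Near Wdr60, a dynein-2 subunit of the cilium, CCI had 6.18 to 7.05 and CFA 6.73 to 6.91, and the difference of -0.35 (-0.66 to -0.0372, limma p = 0.0307) was 0.0381 with the 2-run libraries. Near Nr3c2, the mineralocorticoid receptor, it was -0.36 (-0.69 to -0.0302, limma p = 0.0345). Both models lay below naïve at all of these, and the intervals of all 10 lost regions lie between -0.69 and 0.422.

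Of the 21 gained regions, 18 were higher after CCI than after CFA, and Pcdh9, Vom2r18 and Vom2r17 passed. With the 2-run libraries 14 of the 21 were higher after CCI. The region with Pcdh9, a protocadherin of neuronal contacts, as its distant nearest gene ranged from 4.17 over 5.14 to 5.57 after CCI. CFA libraries ranged from 3.80 over 4.04 to 4.45, and naïve had 3.09, 3.50 and 3.21. The groups overlapped at CCI replicate 1 only. The difference was 0.982 ± 0.215 (SE, limma, p = 3.81e-04, adjusted p = 0.0209) and 0.508 with the 2-run libraries (p = 0.0771, limma). Leaving out 1 of CCI replicates 3, 4 and 6, CFA a or CFA replicates 3 and 5 put its p at 0.00116 to 0.00123.

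Near Cp, which encodes the copper-carrying ferroxidase ceruloplasmin, CCI had 7.53 to 8.44 and CFA 7.36 to 7.63, and the difference was 0.547 ± 0.144 (SE, limma, p = 0.00181). Near Epha3, an ephrin receptor, CCI had 4.81 to 5.72 and CFA 4.38 to 4.97, and the difference was 0.608 ± 0.163 (SE, limma, p = 0.0020). Near Clec4m, a C-type lectin, it was 0.762 ± 0.215 (SE, limma, p = 0.0030), and near the olfactory receptor gene Olr1065 it was 0.719 ± 0.185 (SE, limma, p = 0.0015). These 4 missed the threshold of 0.001 and kept a value above 0 in the 2-run libraries, from 0.239 at Cp to 0.753 at Clec4m.

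Near Lpar1, a receptor for lysophosphatidic acid, CCI had 4.14 to 4.95 and CFA 3.83 to 4.56, and the difference was 0.352 (95% interval -0.0128 to 0.717), which was -0.0303 with the 2-run libraries. Near Kif13b, a kinesin motor, CCI had 3.90 to 4.89 and CFA 3.93 to 4.68, and the difference was 0.118 (-0.26 to 0.50). The 3 gained regions with a value below 0 were those near Cobl (-0.22), Mtdh (-0.0873) and Slc24a5 (-0.0023).

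None of the 4 cloned regions passed. For Wdr60 the values are given above. In the region nearest to Mtdh, which encodes metadherin, CCI had 4.76 to 5.37 and CFA 5.05 to 5.44. Both lay above naïve at 3.93, 4.45 and 4.34, and the difference was -0.0873 (95% interval -0.37 to 0.192). In that nearest to Rrm2b, a subunit of ribonucleotide reductase, CCI had 5.08 to 5.94 and CFA 4.94 to 5.57. The difference was 0.249 (-0.0941 to 0.593). In that nearest to Arap2, a GTPase-activating protein for Arf, CCI had 4.35 to 5.42 and CFA 4.36 to 5.02. The difference was 0.149 (-0.27 to 0.565). The primers shown above thus frame regions in which the models were on the same side of naïve, with any difference between them inside those intervals.

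The largest values on the list were at 4 neighbouring regions of chromosome 8, near Vom2r17 and Vom2r18, which encode vomeronasal receptors. At chr8:4288257-4288665 (Vom2r18), CCI had 4.76 over 5.22 to 5.66, CFA 2.71 over 3.89 to 4.44, and naïve 2.40, 1.61 and 0.86. The groups did not overlap, and the difference was 1.42 ± 0.239 (SE, limma, p = 2.77e-05, adjusted p = 0.0135). At chr8:4322772-4323450 (Vom2r17), CCI had 5.26 to 6.47, CFA 3.45 to 5.22, and naïve 1.61, 2.65 and 1.74, with a difference of 1.48 ± 0.279 (SE, limma, p = 9.18e-05). Neither passed with the 2-run libraries, where the differences were 1.43 (limma p = 0.00457) and 1.10 (limma p = 0.0249).
At the other two, chr8:4337259-4338234 and chr8:4292048-4292933, naïve libraries were near the bottom of the scale, at 0.52 to 1.61. CFA replicate 3 was also low there, at 0.86 and 2.49, whereas the other CFA libraries had 4.37 to 5.10 and 5.08 to 6.34 and the CCI libraries 4.88 to 6.86 and 5.24 to 7.60. Their differences of 1.93 ± 0.593 and 1.45 ± 0.578 (SE) did not pass (limma p = 0.00549 and 0.0246). Without CFA replicate 3 they were 1.29 and 0.902, and the first passed (limma p = 9.3e-04) while the second did not (p = 0.040). The value of 1.93 was also the highest difference among all 56810 regions. Reads from near-identical members of a receptor family can be placed on more than 1 copy, and the assignment of these 4 regions is uncertain.

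**Figure D5:**
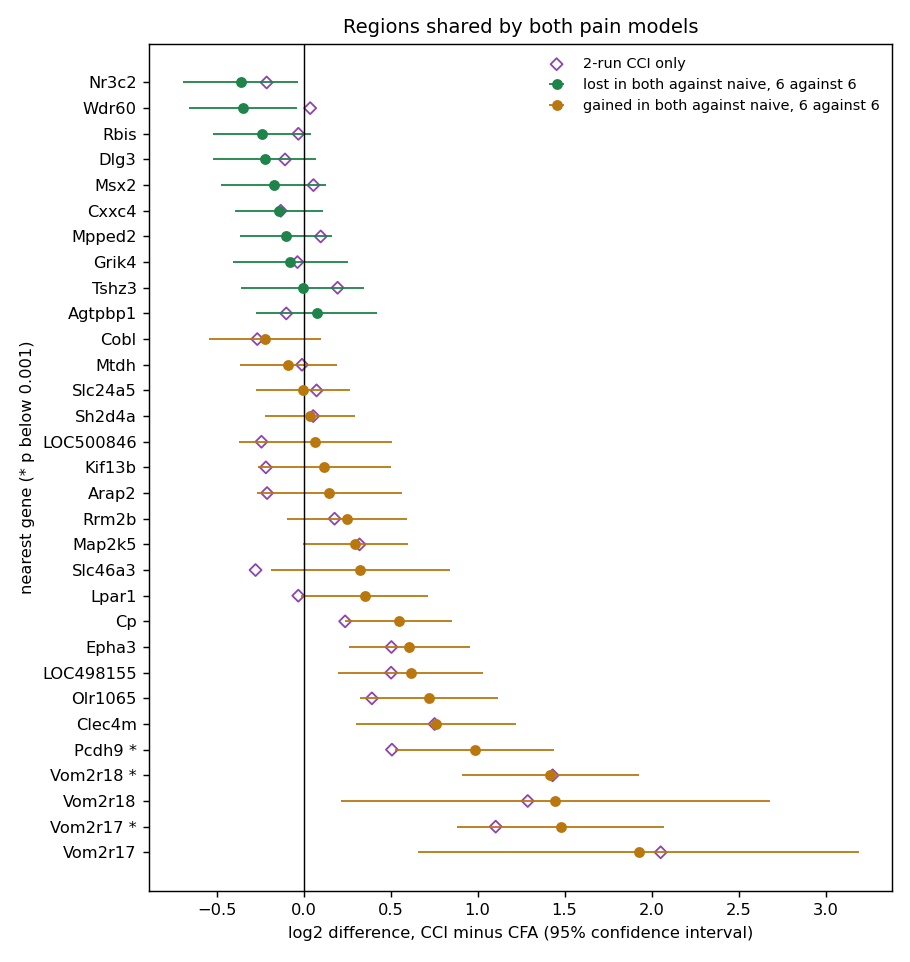
The log2 difference, CCI minus CFA, of the 31 shared regions (x axis, with 95% confidence intervals from limma) by nearest gene, with open diamonds for the 2-run CCI libraries. Lost regions lie between -0.36 and 0.0748, gained regions between -0.22 and 1.93, and stars mark the 3 with p below 0.001.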

How the data were processed

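The values deposited by the authors are log2 normalized coverage of each consensus region, with CCI and naïve libraries in one table and CFA and naïve libraries in the other. Per the paper's methods and the labels, reads were aligned to rn6 with Bowtie2, filtered for mapping quality and duplicates, shifted for Tn5 and downsampled to equal numbers of insertion sites, and peaks were called with MACS2. Values of the RNA-seq table were not used. 2 CFA columns bear names that RNA-seq samples share, so these libraries were left without a number (CFA a, CFA b). All columns with values of a sample were used.

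The tables were joined by position and the 15 columns quantile-normalized together. Regions were compared with limma 3.58.1 in R 4.3.3 (moderated variances, two-sided) at the study's unadjusted p of 0.001, with Benjamini-Hochberg adjusted p beside it. Library means were compared by exact permutation over all splits, 28 of them for 2 against 6, where the smallest p is 0.0357. On simulated data with 200 of 56810 regions changed by 1, 85.5% were recovered for 6 against 6 and 53.5% for 2 against 6. False calls numbered 53 and 58. The simulated noise was independent between regions and equal in both groups. In the data, CCI libraries correlated less with each other than CFA libraries did, and regions moved together. These shares therefore check the code and do not give the recovery in these data.

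Named regions were the 5 with the smallest p per direction among those whose groups did not overlap, the 3 per direction with the 2-run libraries, the 4 cloned regions, the study's shared regions that passed or that its text names, and the stretches. Cp, Epha3, Clec4m, Olr1065, Msx2, Nr3c2, Cobl, Slc24a5, Slc46a3, LOC500846, the other Vom2r regions and the 4 regions that divide by run number were added after their values were seen. Members, lists and tests were chosen with earlier results of these data known. Gene lists could not be used, since no rn6 annotation was at hand. The alternatives were other normalizations, an intensity trend, a robust prior, array weights, the naïve libraries in the fit, a low-value filter, other thresholds, the signal ratio or run number as a term, a replicate block and leaving out single libraries.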

Additional observations from a re-analysis of the deposited data

Results flagged for a closer look

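In 5 of the named regions the CCI minus CFA difference itself differed between CCI libraries of 1 run and of 2 runs (limma within the 6 CCI libraries, 4 against 2, p below 0.001). Of all 56810 regions 54 did so (0.0951%), which is near the share that chance gives at this threshold. The 1-run minus 2-run value was -2.96 at chr14:46524815-46525076 (limma p = 8.0e-07), -4.59 at chr14:46653669-46653873 (limma p = 2.6e-07), -4.11 at chr14:46654181-46654519 (limma p = 1.49e-07) and -4.93 at chr4:24943789-24944343 (limma p = 9.0e-07), each with an adjusted p of at most 0.0102. It was 1.99 at chr2:58337971-58338251 (limma p = 2.51e-04, adjusted p = 0.873), a region named for its 2-run difference. The first 4 were found by searching all regions for a gap of 2, a search chosen after seeing the data, and a gap of 1 gave the same counts, 4 below and 0 above. By Dixon's criterion, 1 library stood apart from its group of 6 in 4 of 130 groups of values, of which chance flags about 1 in 20, and all 4 were CFA libraries at shared regions. CFA replicate 3 had 0.855 near Vom2r17 (chr8:4337259-4338234, others 4.37 to 5.10), 2.49 near Vom2r18 (chr8:4292048-4292933, others 5.08 to 6.34) and 4.32 near Slc46a3 (others 4.84 to 5.12). Without it the Slc46a3 difference went from 0.326 to 0.221 and did not pass in limma either way. CFA a had 3.86 near LOC500846 (others 4.62 to 5.05), where leaving it out moved the difference from 0.0674 to -0.0903, neither passing in limma.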

How the results depend on the processing

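The count of regions with p below 0.001 between CCI and CFA (1954) stayed within 1.5 times after centring each table on its naïve mean (1932), cyclic loess (1978), normalizing 12 columns (1963), a robust prior (1869), array weights (2141), the 15-library fit (2437), dropping the lowest 25% of regions (1929) and with CCI of 1 run (2313). It was 12561 on the deposited values, 3079 with an intensity trend, 78 with the signal ratio as covariate, 453 (152 higher and 301 lower) with run number as a term, 657 with CCI of 2 runs, 4013 at an adjusted p of 0.05 and 6788 at p below 0.01. The run term and CCI of 2 runs give the same differences and differ only in the variance used. Added after seeing the data, it was 908 without CCI replicates 3 and 6 and 1106 outside the stretches. Leaving out single libraries gave 1103 to 2866. The 2-run count (657) was 846 with naïve libraries added, 571 after centring and 2024 with an intensity trend, and 257 to 1436 with 1 library left out. The cause of these changes was not tested.

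CCI and CFA replicates 3 to 6 share numbers, but the correlations of their deviations (-0.147, -0.00711, 0.177 and 0.0927) do not pair the samples. With a replicate block these 8 libraries gave 936 regions, 767 higher and 169 lower, against 1063 with no block.

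Of 27 named regions, 15 passed the threshold, and over their alternatives 347 values stayed past it and 43 did not, 13 of these with the signal ratio as covariate, and none changed sign. Most of the 15 were named for the smallest p or because they passed. Their passing and constant sign were therefore largely set by that choice and are no independent support. Sign changes were limited to regions that did not pass. With the signal ratio as covariate they were chr7:21779060-21779439 (-0.0609), Wdr60 (0.122), Mtdh (0.0993), Grik4 (0.117), Kif13b (-0.0169) and Lpar1 (-0.00393). With CCI of 2 runs or run number as a term they were Wdr60 (0.0381), Arap2 (-0.21), Agtpbp1 (-0.0993), Kif13b (-0.22) and Lpar1 (-0.0303). On deposited values they were Arap2 (-0.0564), Agtpbp1 (-0.11) and Kif13b (-0.0767). For replicates 3 to 6, with or without the block, they were Grik4 (0.0586) and chr2:58337971-58338251 (0.521), the latter also with CCI of 1 run (0.495). With single libraries left out, chr2:58337971-58338251 ran from -0.40 to 0.103 and Agtpbp1 from -0.021 to 0.175.

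Among library means, CCI of 2 runs gave a signal ratio difference of -2.25, and differences of 0.131 in wide regions, -0.0177 in the highest and 0.0827 in the lowest decile, each with an adjusted p of at least 0.0833. CCI of 1 run gave 0.0885 in wide regions, and centring gave -0.0512 in the highest decile, neither passing. The X chromosome turned to 0.000362 after centring and 0.00787 with CCI of 2 runs. With single libraries left out the ranges were -0.020 to 0.0132 for X, 0.0884 to 0.130 in wide regions, -0.0385 to -0.0194 in narrow regions and -0.0702 to -0.0412 in the highest decile. Read counts cannot be recovered from the normalized values, so that no limit from depth is given.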
